A study of Mus musculus with 16 samples.

Results

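A set of 10 amino acid transporter genes were followed in macrophages in which Notch signaling was inhibited. They were Slc7a1, Slc7a5, Slc7a11, Slc3a2, Slc1a4, Slc1a5, Slc6a9, Slc38a1, Slc38a2 and Slc43a2. The members were taken from the 47069 genes of the count table by symbol, each symbol matched 1 row, and all 10 passed the filter on low counts. The study asked how Notch signaling shapes the response of activated macrophages, and RNA-seq was used to compare gene expression with and without a gamma-secretase inhibitor (GSI). The macrophages (BMMs) were grown from bone marrow of C57BL/6 mice, 8 to 10 weeks old, and harvested on day 7 of culture in L929-conditioned medium. All cells, in both groups, were primed overnight with IFNγ (10 ng/mL) and activated for 1 hr with LPS (100 ng/mL) together with immune complexes (ICs) made of ovalbumin and rabbit IgG. One group received the GSI DAPT (25 μM) and the other the vehicle DMSO (0.01%). The study's methods state that both were added overnight before activation, whereas its legends to other experiments give a shorter pretreatment, and the exposure of the sequenced cells is not settled by the sources used here. Each group held 2 libraries, called DMSO 1, DMSO 2, GSI 1 and GSI 2 here. The labels number 4 columns per library, which were taken as sequencing runs, and their counts were summed.

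The design had no unstimulated or unprimed library, so that the values describe the inhibitor in activated cells and not the activation itself. Gamma-secretase cleaves Notch receptors but also many other membrane proteins, and the comparison cannot tell these targets apart. No source says whether the 2 libraries of a group came from separate mice or cultures, and p-values therefore measure a spread between libraries that may be technical. In such bulk RNA, fewer cells of a type and less RNA per cell cannot be told apart.

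Amino acid transporters carry amino acids across the plasma membrane, and most of them take several amino acids that share a charge or size. Slc3a2 (4F2hc or CD98) is a heavy chain that carries no amino acid alone but brings light chains such as Slc7a5 (LAT1) and Slc7a11 (xCT) to the cell surface. When amino acids run short, the kinase Gcn2 phosphorylates eIF2α, translation of the transcription factor Atf4 rises, and Atf4 with its C/EBP partners switches on transporter and amino acid synthesis genes through a DNA element in their promoters or introns. Activated macrophages are known to depend on such uptake, among others of arginine for nitric oxide and of cystine for glutathione.

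The letters of that element, TGATGNAA, were searched on both strands in the RefSeq promoter windows of the build GRCm38.p6, which run from 250 bases before to 50 bases after an annotated start. Windows were at hand for 7 members, 11 windows in all, whereas Slc7a5, Slc1a5 and Slc38a1 had none and were not searched for any motif. The element was present in the windows of Slc7a11 and Slc1a4. The stretches below are shown because they hold the matches. They run 5′ to 3′ on the minus strand, which is the coding strand of both genes, from 150 bases before to 10 bases after the start, with the matched letters in capitals. They lie at chr3:50443604-50443763 for Slc7a11 and at chr11:20332704-20332863 for Slc1a4.
Slc7a11: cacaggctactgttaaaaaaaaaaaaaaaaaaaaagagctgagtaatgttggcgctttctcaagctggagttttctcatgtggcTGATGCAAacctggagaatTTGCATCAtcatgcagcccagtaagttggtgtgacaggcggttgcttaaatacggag
Slc1a4: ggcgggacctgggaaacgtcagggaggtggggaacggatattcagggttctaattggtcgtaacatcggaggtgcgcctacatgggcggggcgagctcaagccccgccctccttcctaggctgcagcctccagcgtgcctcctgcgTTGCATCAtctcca
The Slc7a11 stretch held a pair of matches that faced each other. On the coding strand the leftmost base of TGATGCAA lay 66 bases before the start, and that of TTGCATCA, the element as written for the opposite strand, 47 bases before it. The match of Slc1a4 was also on the opposite strand and spanned the start, its leftmost base on the coding strand lying 4 bases before it. Among all 32851 promoter windows, 3.97% held the element. The RBPJ motif GTGGGAA, through which Notch acts on DNA, was in 0 of the 11 member windows and in 6.38% of all windows. The E-box CACGTG was also in 0 of them, against 7.15% of all windows. With only 11 windows, 0 matches of motifs this rare cannot set the members apart from all windows. The antioxidant response element core TGACNNNGC was in 4 windows of 3 members, Slc38a2, Slc6a9 and Slc7a1, against 12.4% of all windows. None of these matches overlapped a match of another motif, and a match of letters does not show that a factor bound there.

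The libraries totalled 42694655 counts (DMSO 1), 56932059 (DMSO 2), 48483661 (GSI 1) and 49511733 (GSI 2). Member counts ran from 79 to 38982 per library, all far above the floor of 3 counts, which equals 0.0529 to 0.0697 CPM (counts scaled to a common library total of 1e6). The 4 runs of a library differed for the members by about the sampling noise, with a mean chi-square per degree of freedom of 1.08 over 40 tests. The labelled cell type was checked by marker lists. The 8 macrophage markers summed to 12542 and 12743 CPM with DMSO and to 9793 and 10703 CPM with GSI, 5 of them being lower, 1 higher and 2 not called. The lists of T cell, B cell, neutrophil, mast cell and basophil, dendritic cell and fibroblast markers summed to at most 5.25 CPM in any library. Cd3g, Elane, Cpa3, Mcpt8, Ms4a2, Siglech and Col3a1 were at 0 in all 4 libraries. The T cell list summed to 1.72 and 1.5 CPM with DMSO and to 3.79 and 2.83 CPM with GSI, and the part of the changes in marker levels in the member values was not tested.

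With GSI, 5 of the 10 transporters were higher (Slc6a9, Slc7a5, Slc1a4, Slc7a1 and Slc3a2), Slc38a1 was lower, and 4 did not pass the test. The call was an FDR under 0.05 in the quasi-likelihood test of edgeR, adjusted by Benjamini-Hochberg over 13211 tested genes, among which 19.0% were called higher and 21.9% lower, together 40.8%. The fold changes differed widely among the members, from 4.00-fold higher for Slc6a9 to a log2 fold change of -0.29 for Slc38a1. Slc6a9 and Slc7a5 also passed the study's second threshold, an absolute log2 fold change above 1.5, which 2.91% of the tested genes passed in either direction and 0.742% in the higher direction. The median log2 fold change was 0.29 over the members and 0.01 over all tested genes. In 7 members the groups did not overlap, 6 being higher and 1 lower, against 70.6% of the tested genes in either direction, 35.8% higher and 34.8% lower, so that the count of 7 was at the background.

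**Figure D1:**
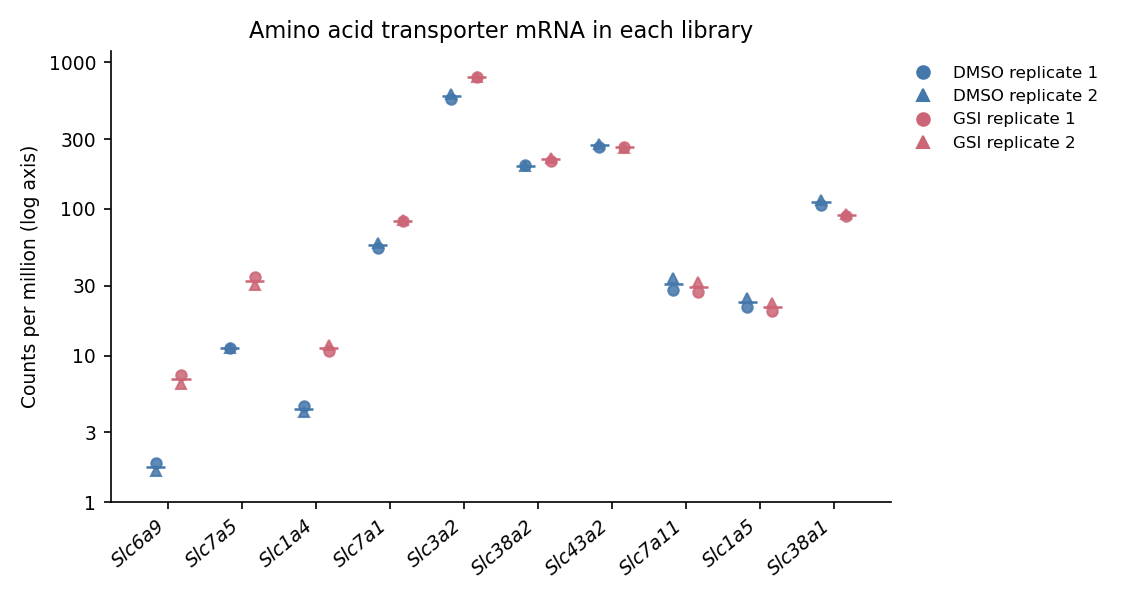
CPM of each of the 10 transporters in the 4 libraries, on a log axis, with 1 point per library (circle for replicate 1, triangle for replicate 2; DMSO blue, GSI red) and a dash at the mean of each group. The GSI points lie above the DMSO points for Slc6a9, Slc7a5, Slc1a4, Slc7a1, Slc3a2 and Slc38a2, below them for Slc38a1, and overlap them for the other 3.

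**Figure D2:**
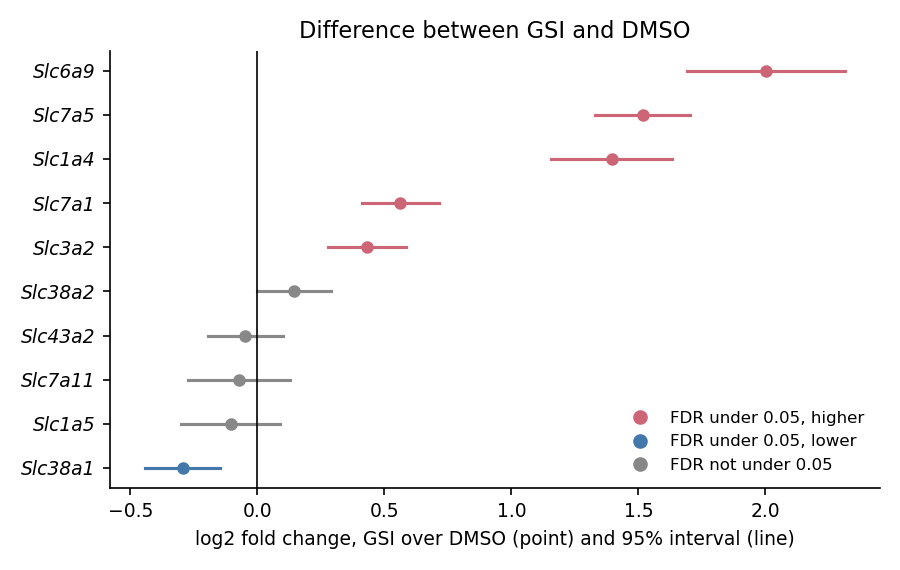
Log2 fold change of each transporter, GSI against DMSO, from edgeR, with 95% intervals as lines (red higher, blue lower, grey not called). The values run from 2.0 for Slc6a9 to -0.29 for Slc38a1, and the intervals of Slc43a2, Slc7a11 and Slc1a5 include 0.

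Slc7a5, Slc7a11 and their heavy chain Slc3a2 were considered first. Slc7a5 (ENSMUSG00000040010, chr8:121881150-121907694, minus strand, GRCm38), the light chain that takes up leucine and other large neutral amino acids, had 11.3 CPM in either DMSO library, 34.3 CPM in GSI 1 and 30.5 CPM in GSI 2. Both GSI libraries were high, and the spread within either group was small beside the gap. Its mean was 11.3 ± 0.0313 CPM (SD, n = 2) with DMSO and 32.4 ± 2.73 CPM (SD, n = 2) with GSI. The log2 fold change was 1.52 (SE 0.0893, 95% interval 1.33 to 1.70), with an FDR of 7.5e-11 in edgeR's quasi-likelihood test. The interval of Slc7a5 thus spans the threshold of 1.5. Without GSI replicate 1, Slc7a5 stood at 1.43, below that threshold but still past the FDR.

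Slc3a2 (ENSMUSG00000010095, chr19:8706882-8723369, minus strand) had 565 and 611 CPM with DMSO and 796 and 789 CPM with GSI. Both GSI libraries lay above both DMSO libraries, by less in proportion than for Slc7a5. The means of Slc3a2 were 588 ± 32.4 and 793 ± 4.57 CPM (SD, n = 2 each), a 1.35-fold difference, and the log2 fold change was 0.43 (SE 0.0736, 95% interval 0.28 to 0.58, FDR 8.9e-05 in edgeR's test).

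Slc7a11 (ENSMUSG00000027737, chr3:49892526-50443614, minus strand), the light chain that exchanges cystine for glutamate, had 27.8 and 33.8 CPM with DMSO and 26.9 and 31.8 CPM with GSI. The groups overlapped, each holding a lower and a higher library. The log2 fold change of Slc7a11 was -0.07 (95% interval -0.27 to 0.13, FDR 0.589 in edgeR's test), an interval that leaves out changes the size of that of Slc7a5. The promoter window of Slc7a11 holds 2 copies of the element, and Slc7a11 was not called. Its sign turned with a single library, since it was 0.07 without DMSO replicate 2 and 0.04 without GSI replicate 1.

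Because Slc3a2 pairs with both light chains, its level was set against theirs within each library, per kilobase of exon so that genes of unequal length can be compared. The ratio of Slc3a2 to Slc7a5 was 52.4 in DMSO 1, 56.8 in DMSO 2, 24.4 in GSI 1 and 27.2 in GSI 2. The ratio of Slc3a2 to Slc7a11 was 80.1 in DMSO 1, 71.4 in DMSO 2, 117 in GSI 1 and 97.8 in GSI 2. The heavy chain transcript exceeded either light chain transcript in every library, and the ratios differed between the groups in opposite directions. On the log2 scale the Slc3a2 to Slc7a5 ratio went from 5.77 ± 0.0834 to 4.69 ± 0.113 (SD, n = 2 each), a difference of -1.08. The Slc3a2 to Slc7a11 ratio went from 6.24 ± 0.117 to 6.74 ± 0.179 (SD, n = 2 each), a difference of 0.50. The exact permutation test gave p = 0.333 (two-sided) for both, which is the smallest p that 2 against 2 libraries allow, so that this test could not reach 0.05.

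**Figure D3:**
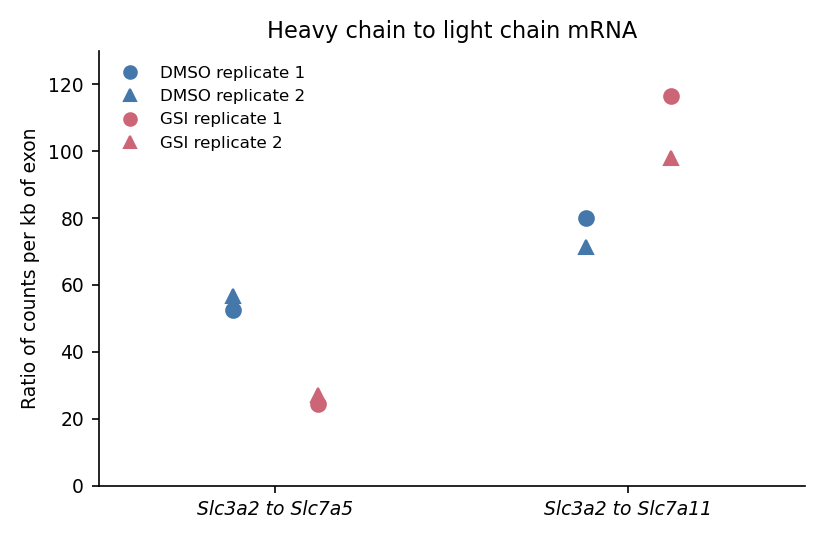
Ratio of the Slc3a2 level to the Slc7a5 and Slc7a11 levels (CPM per kilobase of exon) in each library (circle for replicate 1, triangle for replicate 2; DMSO blue, GSI red). The ratio to Slc7a5 lies at 52.4 and 56.8 for the DMSO and at 24.4 and 27.2 for the GSI libraries, whereas the ratio to Slc7a11 is higher in both GSI libraries.

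Among the single-chain transporters of neutral amino acids, Slc1a4 was called higher and its paralog Slc1a5 was not called. Slc1a4 (ENSMUSG00000020142, chr11:20302180-20332713, minus strand), known as ASCT1, an exchanger of serine, alanine and cysteine, had 4.51 and 4.11 CPM with DMSO and 10.8 and 11.8 CPM with GSI. Both GSI libraries were high, at means of 4.31 ± 0.284 against 11.3 ± 0.669 CPM (SD, n = 2 each). The log2 fold change of Slc1a4 was 1.39 (SE 0.114, 95% interval 1.16 to 1.63, FDR 6.5e-09 in edgeR's test), or 2.63-fold, short of the threshold of 1.5. Slc1a4 passed a threshold of 1.5-fold with Slc6a9 and Slc7a5, all 3 higher, against 5.06% of the tested genes in the higher direction and 14.1% in either direction.

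Slc1a5 (ENSMUSG00000001918, chr7:16781340-16798274, plus strand), known as ASCT2, an exchanger that takes up glutamine, had 21.3 and 24.8 CPM with DMSO and 20.0 and 22.9 CPM with GSI. The groups overlapped, and the log2 fold change of Slc1a5 was -0.10 (95% interval -0.30 to 0.09, FDR 0.398 in edgeR's test). The intervals of Slc1a4 and Slc1a5 lay apart, although the difference between the genes was not itself tested.

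Slc6a9 (ENSMUSG00000028542, chr4:117834506-117875198, plus strand), the glycine transporter GlyT1, had the largest fold change and the lowest level among the members. It had 1.84 and 1.62 CPM with DMSO, from 79 and 92 counts, and 7.39 and 6.40 CPM with GSI, from 357 and 316 counts. Both GSI libraries stood well above both DMSO libraries. The means of Slc6a9 were 1.73 ± 0.152 and 6.89 ± 0.697 CPM (SD, n = 2 each), and the log2 fold change was 2.0 (SE 0.149, 95% interval 1.69 to 2.31, FDR 1.9e-09 in edgeR's test). Its exons share bases with the opposite-strand genes Gm17114, Ccdc24 and B4galt2, whose own counts were at most 5 in any library. The strand setting of the counting is not given, so that these counts cannot show how many opposite-strand reads lay on the shared bases.

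Slc38a1 (ENSMUSG00000023169, chr15:96571418-96642913, minus strand) and Slc38a2 (ENSMUSG00000022462, chr15:96687392-96699730, minus strand) lie next to each other on chromosome 15 and encode SNAT1 and SNAT2, sodium-coupled carriers of glutamine and other small neutral amino acids. Slc38a1 had 107 and 116 CPM with DMSO and 89.3 and 92.1 CPM with GSI, both GSI libraries being low. Its means were 111 ± 6.33 and 90.7 ± 1.97 CPM (SD, n = 2 each), and the log2 fold change of Slc38a1 was -0.29 (SE 0.0715, 95% interval -0.44 to -0.15, FDR 0.00248 in edgeR's test). Slc38a1 was the only member called lower, and this call rested on DMSO replicate 2, without which the log2 fold change was -0.24 with an FDR of 0.0508.

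Slc38a2 had 199 and 195 CPM with DMSO and 213 and 223 CPM with GSI. Both GSI libraries lay above both DMSO libraries, by a small margin. The log2 fold change of Slc38a2 was 0.14 (SE 0.0690, 95% interval 0.00019 to 0.29, FDR 0.101 in edgeR's test) and did not pass the threshold.

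Slc7a1 (ENSMUSG00000041313, chr5:148327410-148399904, minus strand), the transporter CAT1 of arginine and lysine, had 54.3 and 58.6 CPM with DMSO and 82.1 and 84.6 CPM with GSI. The groups of Slc7a1 were apart, at means of 56.5 ± 3.09 and 83.4 ± 1.77 CPM (SD, n = 2 each). The log2 fold change of Slc7a1 was 0.56 (SE 0.0726, 95% interval 0.41 to 0.71, FDR 3.2e-06 in edgeR's test), or 1.48-fold. Slc7a2, another arginine carrier (CAT2), which is known to be induced in activated macrophages, had 105 and 129 CPM with DMSO and 127 and 140 CPM with GSI. The groups of Slc7a2 overlapped, with a log2 fold change of 0.19 and an FDR of 0.0793.

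Slc43a2 (ENSMUSG00000038178, chr11:75531694-75577575, plus strand), the uniporter LAT4 of large neutral amino acids, had 263 and 279 CPM with DMSO and 265 and 260 CPM with GSI. The groups overlapped, with a log2 fold change of -0.05 (95% interval -0.19 to 0.10, FDR 0.627 in edgeR's test). No change of Slc43a2 was detected, while Slc7a5, which carries many of the same amino acids, was 2.86-fold higher. Its exons share 922 bases with the antisense gene Gm45606, which was not analysed here.

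Per kilobase of exon, the members spanned a 233-fold range of level in means over all 4 libraries. The ends of this range differed by group. Slc3a2 and Slc6a9 stood at 167 and 0.336 CPM per kilobase with DMSO and at 225 and 1.34 with GSI. Slc3a2 led at a mean of 196 CPM per kilobase over the 4 libraries, a level above that of 98.0% of 13165 tested genes. Slc43a2 and Slc38a2 followed at 26.6 and 23.5 CPM per kilobase, and Slc6a9 came last at 0.838 CPM per kilobase. These 4 genes kept their places in both groups. Slc7a1, Slc7a5, Slc38a1, Slc1a5, Slc7a11 and Slc1a4 lay between them, and their means over the 4 libraries, from 6.06 for Slc7a1 to 1.99 CPM per kilobase for Slc1a4, join groups that differ. Within the DMSO group 0 of the 9 pairs of neighbours overlapped in range, although Slc1a5 and Slc7a1 nearly met, the lower Slc1a5 library being at 5.10 and the higher Slc7a1 library at 5.09 CPM per kilobase. Within the GSI group 1 of the 9 pairs overlapped, Slc38a1 and Slc1a5.

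Within the middle of this order the ranks differed between the groups, in part only with this choice of length. Slc7a5 was the 7th of the 10 with DMSO, at 3.05 ± 0.00844 CPM per kilobase, and the 4th with GSI, at 8.74 ± 0.737 CPM per kilobase (SD, n = 2 each). Slc38a1 was the 4th with DMSO, at 6.45 ± 0.367 CPM per kilobase, and the 6th with GSI, at 5.26 ± 0.114 CPM per kilobase (SD, n = 2 each). Slc1a4 and Slc7a11 exchanged the ranks 8 and 9, Slc1a4 being at 1.10 and Slc7a11 at 2.21 CPM per kilobase with DMSO, and at 2.88 and 2.11 CPM per kilobase with GSI. These levels depend on the exon length that is assumed. With the longest transcript in place of all exons, the DMSO mean was 15.3 for Slc38a1, 7.86 for Slc7a1 and 3.34 CPM per kilobase for Slc7a11, each moved by more than 1.5 times. With that length Slc38a1 was the 4th in both groups and Slc1a4 the 9th in both, Slc7a11 lay above Slc7a5 with DMSO (3.34 against 3.22 CPM per kilobase), and Slc7a5 went from rank 8 with DMSO to rank 6 with GSI.

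**Figure D4:**
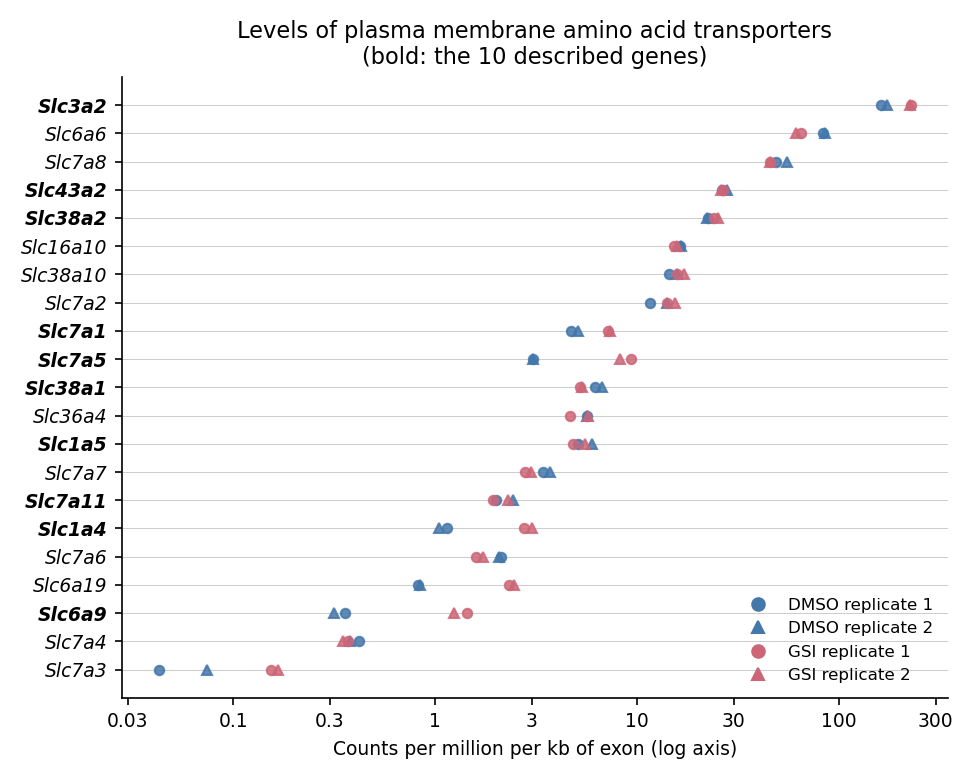
Level in CPM per kilobase of exon, on a log axis, of the 10 transporters (bold) and the 11 other tested plasma membrane transporters, ordered by the mean, with 1 point per library (circle for replicate 1, triangle for replicate 2; DMSO blue, GSI red). Among the 10, Slc3a2 at a mean of 196 and Slc6a9 at 0.838 CPM per kilobase mark the ends, and in the middle Slc7a5 goes from 3.05 with DMSO to 8.74 with GSI.

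The other amino acid transporters of the plasma membrane were listed for comparison. Of 36 genes, 14 were at 0 in all libraries and 11 passed the filter. Of these 11, 2 were higher, 3 lower and 6 not called, against 19.0% higher and 21.9% lower among all tested genes. The list median was -0.11 on the log2 scale. Slc6a19, a sodium-coupled carrier of neutral amino acids best known from the gut and kidney, was higher, at 4.11 and 4.21 CPM with DMSO and 11.6 and 12.3 CPM with GSI (log2 fold change 1.52, FDR 1.4e-09). Slc7a3, a cationic amino acid transporter, was called higher (log2 fold change 1.39, FDR 0.00626) but rested on few reads. Its counts were 7 (DMSO 1), 16 (DMSO 2), 28 (GSI 1) and 31 (GSI 2). DESeq2 did not call Slc7a3 (adjusted p 0.104). Its log2 fold change was 1.09 without DMSO replicate 1 and 1.87 without DMSO replicate 2. Slc6a6, the taurine transporter, was lower, at 706 and 717 CPM with DMSO and 544 and 515 CPM with GSI (log2 fold change -0.43, FDR 8.0e-05).

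Of the other light chains of Slc3a2, 3 were examined, of which 2 were lower and 1 was not called. Slc7a6 (log2 fold change -0.33, FDR 0.016) and Slc7a7 (log2 fold change -0.31, FDR 0.0169), both of which exchange cationic for neutral amino acids, were lower. Neither was called by DESeq2 (adjusted p 0.094 for Slc7a6 and 0.087 for Slc7a7) or by edgeR without GSI replicate 1 (FDR 0.0823 and 0.0742), and edgeR also lost Slc7a6 without DMSO replicate 1 (FDR 0.0646) and Slc7a7 without DMSO replicate 2 (FDR 0.148). Slc7a8 (LAT2), the close relative of Slc7a5, had 243 and 275 CPM with DMSO and 227 and 227 CPM with GSI. It did not pass the threshold at a log2 fold change of -0.19 and an FDR of 0.0502. DESeq2 (adjusted p 0.0503) and edgeR with no filter beyond 1 count (FDR 0.0568) did not call it either. It was called lower with RLE factors (FDR 0.0432), no normalization factors (0.0402) and at least 10 counts in every library (0.0427). The same held with the replicate block (0.0142) and the 16 runs as samples (2.2e-05). Its log2 fold change was -0.27 without DMSO replicate 1 and -0.097 without DMSO replicate 2. Over the alternatives the higher calls of the list ranged from 1 (DESeq2, at least 10 counts in every library, or without DMSO replicate 1) to 3, and the lower calls from 1 (DESeq2, or without GSI replicate 1) to 5 (the 16 runs as samples), being 4 with the replicate block.

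Lysosomal transporters return amino acids from digested protein to the cytosol. Of 9 listed genes 8 were tested, with a list median of 0.17 on the log2 scale. Against 19.0% of all tested genes, 4 of the 8 were called higher. They included Mfsd12 (log2 fold change 0.78), needed for cysteine import into melanosomes and lysosomes, Slc38a7 (0.70), a glutamine exporter, and Slc66a1 (0.33), an exporter of cationic amino acids. Of the lysosomal genes 0 were called lower by edgeR as described above or by DESeq2, and 1 was lower at an unadjusted p under 0.05 in edgeR. Other edgeR settings called 1 lower (RLE factors, at least 10 counts in every library, or the replicate block) or 2 lower (the 16 runs as samples). Of 11 mitochondrial carriers 8 were tested. The 2 called higher were Slc25a22, a glutamate carrier (log2 fold change 0.44), and Slc25a38, a glycine carrier (0.34). The 2 called lower were Sfxn3, a serine transporter (-0.60), and Slc25a13, an aspartate and glutamate carrier (-0.23). Among all tested genes 19.0% were called higher and 21.9% lower. Leaving out DMSO replicate 1 or GSI replicate 2 left 1 mitochondrial gene higher and 1 lower.

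The genes of the amino acid response other than transporters moved in the higher direction for the most part. Of 26 listed genes 25 were tested, of which 18 were higher, 1 lower and 6 not called. The list median was 0.75 on the log2 scale. Of all tested genes, 19.0% were called higher and 21.9% lower. This list was chosen with earlier results of these data known, so that its counts are a description only. Atf4 itself had 239 and 253 CPM with DMSO and 476 and 444 CPM with GSI (log2 fold change 0.90, SE 0.0726, FDR 5.5e-09). The largest increases were those of Chac1 (log2 fold change 2.18), which degrades glutathione, Phgdh (2.13), the entry enzyme of serine synthesis, and Trib3 (2.09), a pseudokinase that restrains Atf4. Trib3 had 332 counts in DMSO 1, 562 in DMSO 2, 1647 in GSI 1 and 2061 in GSI 2. Atf3, a transcription factor also induced by LPS, was lower, with a log2 fold change of -0.19 and an FDR of 0.0398, a call that was lost whichever library was left out. The element TGATGNAA was in 7 of the 26 promoter windows of the response genes, which belong to 23 genes, against 3.97% of all windows. The matches were in Asns, Chac1, Nupr1 and Trib3, called higher, in Atf3, called lower, and in Pycr1 and Vldlr, not called. The antioxidant response element core TGACNNNGC was also in 7 of the 26 windows (12.4% of all windows), the E-box CACGTG in 2 (7.15%) and the RBPJ motif GTGGGAA in 1 (6.38%).

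Phosphorylation of eIF2α by the upstream kinases cannot be read from RNA, but their transcripts were measured. Of the 4 eIF2α kinase genes, 0 were called in either direction by edgeR, 0 had an unadjusted p under 0.05, and DESeq2 also called 0. Among all tested genes edgeR called 40.8%. Eif2ak4, which encodes Gcn2, had a log2 fold change of -0.15 (95% interval -0.32 to 0.03, FDR 0.169). In edgeR, 1 of the 4 kinase genes was called lower without GSI replicate 2 and with the replicate block, and 3 were with the 16 runs as samples.

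The genes by which mTORC1, the kinase complex that drives growth, senses amino acids went in both directions. Of 31 tested genes 11 were higher, 4 lower and 16 not called, with a median log2 fold change of 0.15. The shares over all tested genes were 19.0% higher and 21.9% lower. The largest increases were in Rragd (log2 fold change 1.16), a Rag GTPase that brings mTORC1 to the lysosome, Itfg2 (0.61), a subunit of the KICSTOR complex, and Mlst8 (0.57), a subunit of mTORC1. The largest decreases were in Sesn1 (log2 fold change -0.75) and Sesn3 (-0.43), of the family of sestrin leucine sensors and stress proteins, and in Depdc5 (-0.32), a subunit of the inhibitory complex GATOR1. The sestrins did not share a direction, since Sesn2, which was counted in the amino acid response list and is named here after its values were seen, was higher (log2 fold change 0.52, FDR 7.9e-06).

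**Figure D5:**
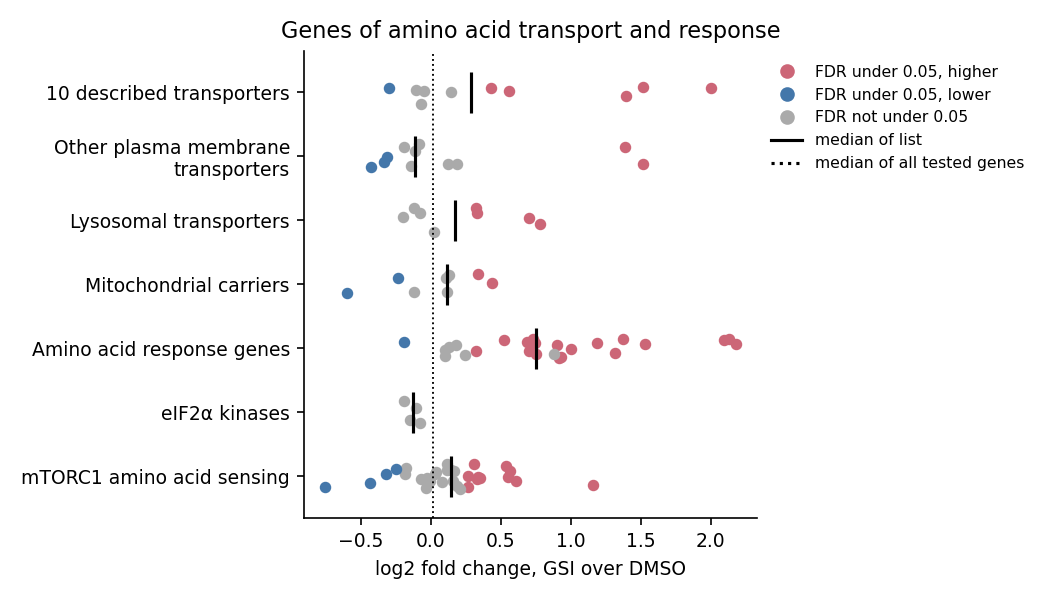
Log2 fold changes, GSI against DMSO, of the tested genes in 7 lists, with 1 point per gene (red higher, blue lower, grey not called), a bar at each list's median and a dotted line at the median of all tested genes; vertical scatter only separates points. The amino acid response list has the highest median, 0.75, and the other plasma membrane transporters have a median of -0.11. The lists were chosen with earlier results of these data known.

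Genes with the pattern most like that of 2 members across the 4 libraries were found by the Euclidean distance of log2 CPM centred on each gene's mean. For Slc6a9 these were Glrp1 (distance 0.148), Gm7901 (0.207) and Ptger3 (0.213). For Slc38a1 they were Adrbk1 (distance 0.0142), Fhod1 (0.0225) and Rasal3 (0.0248). Gm7901 lay near the floor with DMSO, at 0.0697 and 0.0705 CPM. With 4 libraries, such likeness is a description only.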

How the data were processed

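The authors sequenced stranded poly(A) libraries of LPS/IC-activated BMMs on an Illumina NextSeq system, trimmed reads with Trimmomatic, aligned them with STAR (2.5.0a in the submitters' processing notes, which list both mm9 and mm10) and assigned them to genes with HTSeq. The mode and strand setting of the counting are not given in the sources used here. The authors deposited these raw counts, without normalization, for 47069 Ensembl genes in 16 columns, all used. The final number of a sample title is not explained by the labels and was treated as a sequencing run, and the 4 runs of each replicate were summed.

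Counts were tested with edgeR 4.0.16 (R 4.3.3; filterByExpr, TMM, glmQLFit and glmQLFTest), in a model of group alone, with p-values of 13211 genes adjusted by Benjamini-Hochberg. Thresholds were an FDR under 0.05 and, as in the study, an absolute log2 fold change above 1.5. CPM used TMM-adjusted library sizes, and the code was tested on simulated data. A standard error was the log2 fold change divided by the square root of F, and intervals are 95% intervals of that fit. The floor of 3 counts covers counting error only. Positions and exon lengths came from GENCODE M21 (GRCm38), which held 98.8% of the gene IDs. Promoter windows came from RefSeq.

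The members and lists were chosen with earlier results of these data known. The text names all members, from each list the 3 largest changes in each direction among called genes, Slc7a2, Slc7a6, Slc7a7, Slc7a8, Eif2ak4 and Atf4, and the 3 genes most like the members with the largest rise and fall. Itgam, with 2 rows, was left out of the macrophage markers. Alternatives were DESeq2 1.42.0, other normalization factors and filters, a replicate block, the 16 runs as samples, a 1.5-fold threshold, another gene length, and leaving out each library.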

Additional observations from a re-analysis of the deposited data

How the results depend on the processing

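Of 110 member values under 11 alternatives, 105 kept their direction and their side of the FDR threshold. The exceptions were Slc7a11, which turned to 0.075 without DMSO replicate 2 and 0.04 without GSI replicate 1 (range over left-out libraries -0.20 to 0.075), Slc1a5, which turned to 0.0095 without DMSO replicate 2 (-0.21 to 0.0095), Slc38a1, which lost its call there (log2 fold change -0.24, FDR 0.0508), and Slc38a2, which was called with the 16 runs as samples (0.15, FDR 2.5e-06). With a library left out, the members called higher stayed at 5, those called lower ranged from 0 to 1 and those past both thresholds from 1 to 2. The lone library left in a group was then assumed to vary like the other group. Over all genes, 2504 were called higher, against 3896 with the 16 runs as samples, and 385 passed both thresholds, against 154 with at least 10 counts in every library, 178 with the 16 runs as samples and 1864 with a 1.5-fold threshold. With the longest transcript as the length, the mean log2 ratio with DMSO was 6.02 for Slc3a2 to Slc7a5 and 5.97 for Slc3a2 to Slc7a11. Runs were taken as repeat readings of a library, and their spread then leaves out that between libraries. Apart from these, the cause of a change was not tested.

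The replicate numbers did not pair the samples by any label, and the deviations of same-numbered libraries correlated at 0.155 over 13211 genes, with only 2 pairs. With a replicate block, 3130 genes were called higher and 3314 lower (2504 and 2888 without it), and the member counts were 5 higher, 1 lower and 2 past both thresholds, as without the block. DESeq2 called 1690 genes higher and 2343 lower.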
